A study of Mus musculus with 4 samples.

Results

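The spots with the highest share of mitochondrial RNA in 4 sections of MC38 tumors are described here. Of 11947 spots under tissue, 11932 held 1000 or more UMIs (unique molecular identifiers, each marking 1 captured RNA molecule). In each of these, the UMIs of the 13 genes whose symbol starts with mt- were divided by all UMIs of the spot. Members were chosen by this measured share alone: the 10% of spots with the highest share within each section were called high, 1195 in all. CC075F1 replicate 1 gave 270 of them, CC075F1 replicate 2 gave 328, CC080F1 replicate 1 gave 279 and CC080F1 replicate 2 gave 318, and values for the 4 sections are given in this order below. The 5966 spots between the 25th and the 75th percentile of the same section, called middle, served as the comparison. A Visium spot is a small region of tissue that can hold several cells, so the values describe regions and not cells, and fewer cells of a type and less RNA per cell cannot be told apart.

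MC38, a mouse colon carcinoma line, had been injected subcutaneously into F1 females that were 8 to 12 weeks old. The genotypes were C57BL/6J x CC075/UncJ (CC075F1, classed by the study as a responder strain to anti-PD-1) and C57BL/6J x CC080/TauUncJ (CC080F1, classed as a non-responder strain), with 2 tumors of each. All 4 hosts had received a single dose of 200 µg of the isotype control antibody 2A3 when tumors measured between 75 and 110 mm3, and the tumors were removed 48 hours after it. No tumor treated with anti-PD-1 was analysed here. The labels give no slide or library batch, so whether such a batch followed strain could not be examined. Section totals ran from 82594649 to 146460975 UMIs. Of the 8 epithelial markers listed for the line, 3 were frequent enough to be tested, with Shisal2b, a marker of MC38, at a mean of 205 CPM (UMIs per 1000000 non-mitochondrial UMIs) in middle spots and 165 CPM in high spots.

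Mitochondrial DNA encodes 13 proteins, all subunits of respiratory complexes I, III, IV and V, while the other subunits of these complexes and the proteins that copy, transcribe and translate mitochondrial DNA are encoded in the nucleus. Most mitochondrial mRNAs carry short poly(A) tails and are therefore captured by oligo(dT) along with nuclear mRNAs. A high mitochondrial share is used widely as a sign of damaged cells that have lost cytoplasmic RNA, but it also differs between tissues with their content of mitochondria, heart and red muscle being known for high values.

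The share that separated the classes was low in absolute terms and differed between sections. The lowest share in a high spot was 4.25%, 2.73%, 4.50% and 3.66% in the 4 sections, while the next spot below held 4.24%, 2.73%, 4.50% and 3.66%, so the limit fell in a continuous range. Median shares of the high spots were 4.84%, 3.17%, 5.01% and 4.80%, against 1.81%, 1.33%, 2.01% and 1.76% in middle spots of the same sections. The highest share in any spot was 8.66%. The section medians were lower in CC075F1 than in CC080F1 by 0.31 percentage points (means 1.57% ± 0.34 and 1.88% ± 0.17, SD, n = 2 each), which was not a detectable difference (two-sided exact permutation test, p = 0.667, with 0.333 as the smallest value possible for 2 against 2).

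High spots lay in patches. Moran's I of the share, a measure of how alike the 6 neighbouring spots are, was 0.68, 0.76, 0.68 and 0.73 in the 4 sections. Of the neighbours of a high spot, 53.9%, 59.5%, 57.2% and 70.4% were high as well, although high spots made up 10% of each section. The largest connected group of high spots held 45, 96, 90 and 163 spots. In CC080F1 replicate 2 this group made up 51.3% of all high spots.

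**Figure D1:**
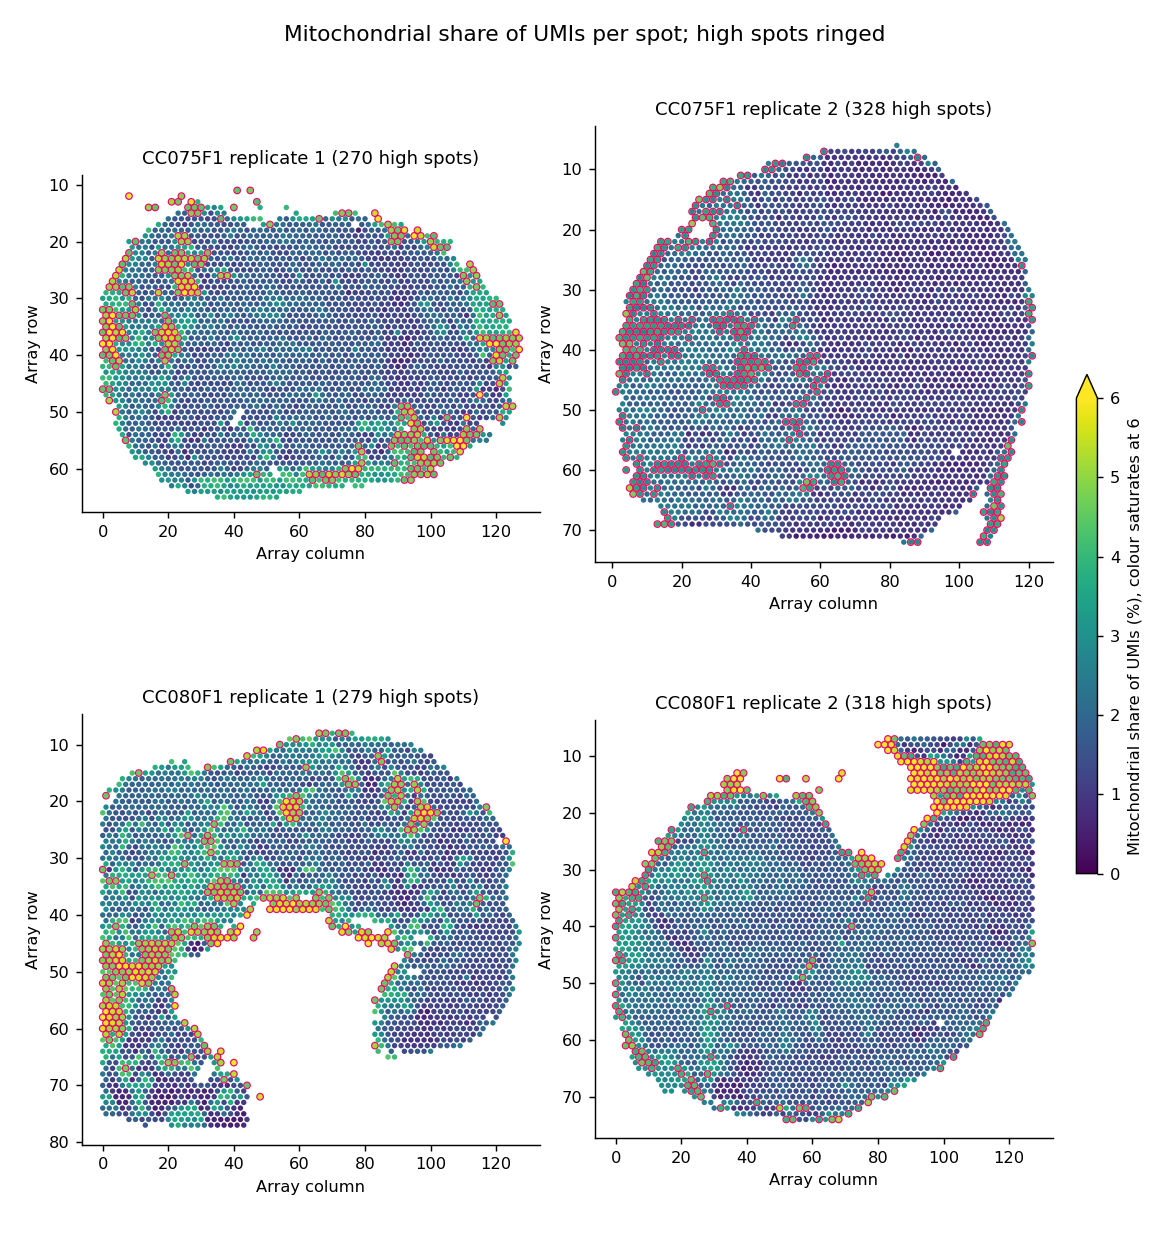
Each panel shows 1 section on its array grid (array column and row), with every spot of 1000 or more UMIs coloured by its mitochondrial share of UMIs in percent and the high spots ringed. High spots form rims and inner patches in all 4 sections, and the largest patch, of 163 spots, lies in CC080F1 replicate 2; colours in CC075F1 replicate 2 are darker because its limit was 2.73%.

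Total UMIs entered the share as its denominator, so UMIs per spot are given as a description of how the high share came about. In high spots the median of mitochondrial UMIs was 900.5, 1600.5, 1320 and 559.5, which was 1.42, 2.67, 1.78 and 0.82 times that of middle spots. The median of all other UMIs was 17682.5, 47318, 24699 and 10348, which was 0.51, 1.03, 0.68 and 0.27 times that of middle spots. By these medians the sections differed in make-up. In CC075F1 replicate 2 high spots held more mitochondrial RNA at a similar median of other RNA. In CC080F1 replicate 2 both medians were lower, that of other RNA more so. In the remaining sections mitochondrial RNA was higher and other RNA lower. High spots of CC080F1 replicate 2 were skewed in depth, with a mean of 18433 other UMIs. Their medians therefore do not describe their summed RNA. The similar median in CC075F1 replicate 2 pooled unlike places. Within 3 steps of the tissue border, its high spots held a median of 22414 other UMIs, against 29535 in middle spots. Further inside, the medians were 63362 and 47592. The log2 ratio of median non-mitochondrial UMIs averaged -0.84 ± 0.81 (SD, n = 4) and was below 0 in 3 of 4 sections, given without a test because the share contains this quantity. With means in place of medians it was -0.84, -0.11, -0.53 and -1.06 in the 4 sections. Of the high spots, 33.7%, 22.0%, 17.2% and 61.3% were among the 10% of spots of lowest depth in their section.

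High spots lay nearer to the border of the tissue. Their mean distance to the closest position off tissue was 5.10, 7.00, 5.53 and 3.27 grid steps, against 10.8, 11.5, 6.28 and 10.1 steps for middle spots. The difference was -5.69, -4.49, -0.74 and -6.79 steps, below 0 in 4 of 4 sections (mean -4.43 ± 2.63, SD, two-sided exact sign-flip permutation p = 0.125, the smallest possible with 4 sections). In CC080F1 replicate 1 the 2 classes were thus much closer together than in the other sections. In that section 66 spots lay on the rim of the grid, where the tissue border may not be seen. Its difference was -1.83 steps with positions outside the grid counted as off tissue. With the outer boundary alone, leaving out inner gaps, it was -1.11 steps. Shares of high spots within 3 steps of the border were 45.9% (exact Clopper-Pearson 95% interval 39.9 to 52.1), 52.1% (46.6 to 57.7), 41.2% (35.4 to 47.2) and 65.7% (60.2 to 70.9). The same shares for middle spots were 13.1% (11.4 to 15), 11.4% (9.92 to 13.1), 31.2% (28.7 to 33.7) and 13.1% (11.5 to 14.9), where the intervals cover counting error only and neighbouring spots are not independent. When the classes were formed within 10 strata of depth, the mean difference was -2.16 steps, and in CC080F1 replicate 1 it was 0.31 steps in the other direction.

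**Figure D2:**
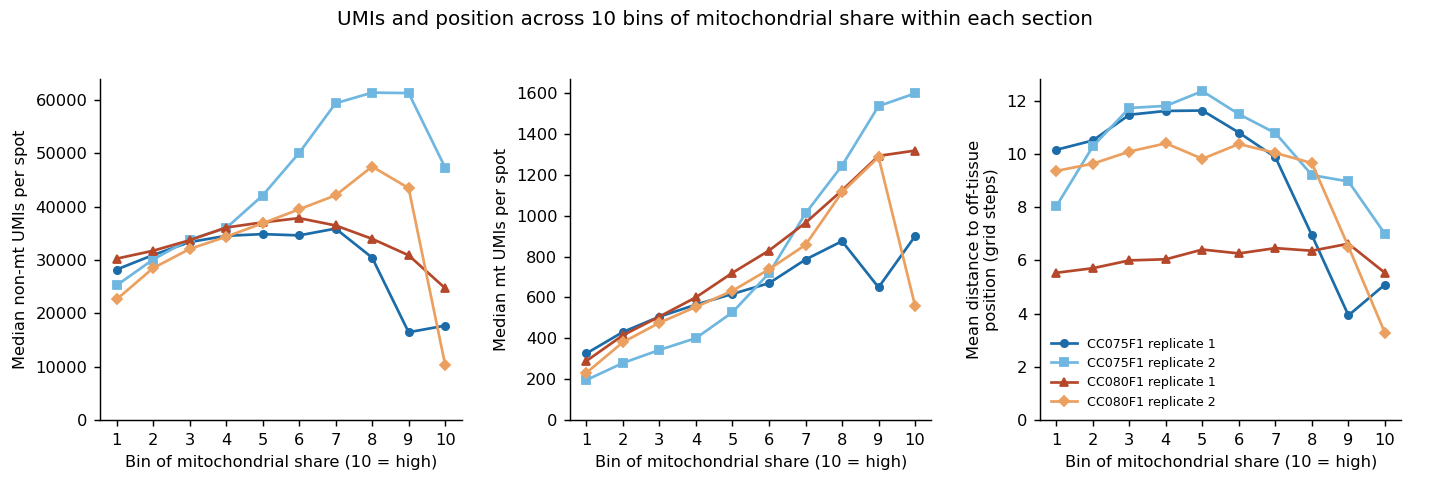
Spots of each section were sorted into 10 bins of mitochondrial share (x axis, bin 10 being the high class); the panels show the median of non-mitochondrial UMIs, the median of mitochondrial UMIs and the mean distance to off-tissue positions in grid steps, 1 line per section. Depth in bin 10 is below its peak in all 4 sections, most in CC080F1 replicate 2, where it ends at 10348 UMIs.

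The number of different genes seen at equal depth did not differ detectably between the classes. Spots of 5000 or more non-mitochondrial UMIs were thinned to 5000, and shallower spots were left out. This kept 257 of 270, 320 of 328, 278 of 279 and 280 of 318 high spots. Of the middle spots it kept 1340 of 1349, 1628 of 1637, 1388 of 1393 and 1575 of 1587. High spots then held 2140, 1875, 2266 and 2146 genes on average and middle spots 2170, 1784, 2289 and 2160. The difference was below 0 in 3 of 4 sections and 91.1 genes above 0 in CC075F1 replicate 2 (mean 6.18 ± 56.9, SD, n = 4, exact sign-flip permutation p = 1.0). Without that section the mean was -22.1 genes.

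The 13 mitochondrial mRNAs, which the rule used, did not rise to the same degree, given here without a test. As a share of all UMIs, mt-Co1, a catalytic subunit of complex IV and among the most abundant of them, was 1.96, 1.85, 2.06 and 2.17 times as high in high as in middle spots. Further abundant transcripts behaved alike, with mean ratios of 2.22 for mt-Cytb (complex III), 2.31 for mt-Co3 (complex IV) and 2.35 for mt-Atp6 (complex V). By contrast mt-Nd1, a subunit of complex I, was 4.20, 3.32, 3.22 and 3.17 times as high, and the mean ratio was 3.47 for mt-Nd2, 3.06 for mt-Nd4, 3.19 for mt-Nd5, 3.68 for mt-Nd3 and 3.25 for mt-Co2. In each section all 9 remaining transcripts had larger ratios than mt-Co1, mt-Cytb, mt-Co3 and mt-Atp6, though mt-Nd6 rested on only 13 to 48 UMIs per high class. The gap was narrow in CC075F1 replicate 2 (2.51 for the highest of the 4 and 2.52 for the lowest of the 9). It was wider in the other sections, for example 2.34 and 2.91 in CC080F1 replicate 1. As a result mt-Co1 made up a mean of 16.7% of mitochondrial UMIs in high spots and 20.2% in middle spots, whereas mt-Nd1 made up 4.32% and 3.05%. The transcripts mt-Atp8 and mt-Nd4l had the largest mean ratios (4.87 and 3.97) but together with mt-Nd6 made up less than 0.2% of mitochondrial UMIs, and mt-Atp8 and mt-Nd4l overlap mt-Atp6 and mt-Nd4 on the genome, so reads of these pairs can be hard to assign.

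**Figure D3:**
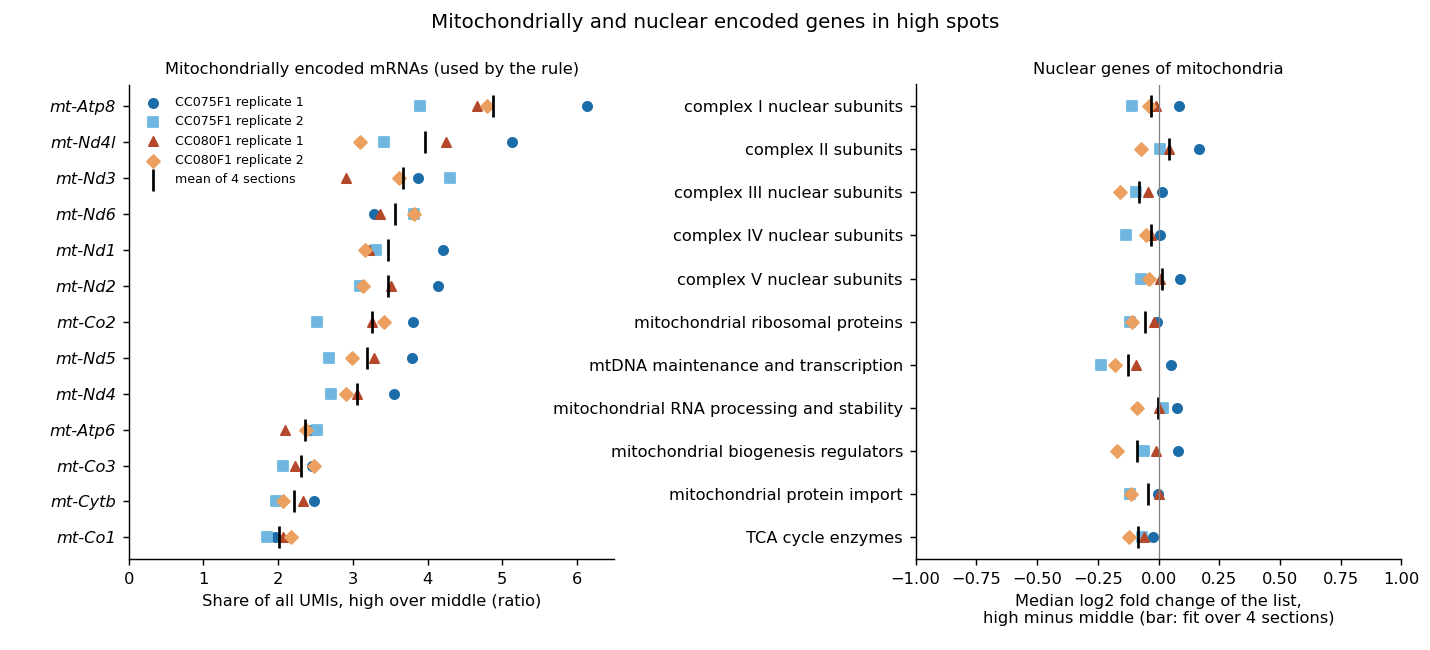
Left, the share of all UMIs of each mitochondrially encoded mRNA in high over middle spots (ratio), with 1 symbol per section and a bar at the mean of 4 sections; right, the median log2 fold change of 11 lists of nuclear genes of mitochondria, with the same symbols and a bar for the fit over 4 sections. The mRNAs range from a mean of 2.01 (mt-Co1) to 4.87 (mt-Atp8), while no list of nuclear genes has a fitted median further from 0 than -0.12. Medians of single sections reach -0.24 (mtDNA maintenance and transcription, CC075F1 replicate 2).

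For all other genes, the UMIs of the high and of the middle spots were summed per section and compared within section by edgeR's quasi-likelihood test with Benjamini-Hochberg adjustment, at a threshold of 0.05. Of 13778 genes tested, 846 (6.14%) differed, 454 (3.30%) being higher and 392 (2.85%) lower in high spots. The changes upward were larger: only 3 of the lower genes differed more than 2-fold, and the median log2 fold change was 0.47 among the higher and -0.29 among the lower genes, against 0.00 over all genes tested. The pairing within tumors carried these calls, since a fit without the section found 0 genes (823 with an unadjusted p under 0.05, against 3468 in the paired fit). The number of calls also rested on single sections, falling to 24 without CC075F1 replicate 1, 153 without CC075F1 replicate 2 and 176 without CC080F1 replicate 2, and to 293 when classes were formed within strata of depth. Across genes, the log2 fold changes of 2 sections correlated with Pearson's r between 0.08 and 0.51, as a description over 13778 genes that are not independent of each other.

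Nuclear genes of the respiratory chain changed little in size. Of 82 nuclear subunits of complexes I to V tested, 1 was higher and 7 were lower, and 72 had a log2 fold change within 0.2 of 0 (median -0.02, range -0.33 to 0.33). Background shares over all genes tested were 3.30% higher and 2.85% lower, so lower calls were more frequent among these subunits and higher calls less. The higher gene was Ndufa10, a subunit of complex I, at 0.23 on the log2 scale. Among the lower genes were Cox6c (-0.30 ± 0.06 SE) and Cox5a (-0.21 ± 0.05), both of complex IV, Uqcrb of complex III (-0.29 ± 0.06), and Atp5md of complex V (-0.25 ± 0.06), with adjusted p between 0.025 and 0.044 in edgeR. Over the 19 alternatives that kept the pairing, Cox6c was called in 12 and Atp5md in 10. The most abundant subunits of complex V and IV differed little and did not pass, with 0.04 for Atp5b, -0.04 for Cox4i1 and -0.01 for Cox8a.

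The next lists hold the machinery that maintains and reads mitochondrial DNA and other mitochondrial functions, where 3.30% of all genes tested were higher and 2.85% lower. None of 19 genes of mtDNA maintenance and transcription was called in edgeR (median -0.12), with -0.16 for Tfam, which packages and transcribes mtDNA, and 0.03 for Polg, its polymerase. Likewise none of 19 genes of mitochondrial RNA processing and stability (median 0.00) and none of 9 regulators of mitochondrial biogenesis (median -0.09) passed. Of 78 mitochondrial ribosomal proteins 1 was higher (Mrpl2, 0.32) and 7 were lower, such as Mrps6 at -0.33. Protein import had 2 lower genes of 25, Timm8a1 and Tomm22. Among 18 enzymes of the TCA cycle 5 were lower, including Idh2 (-0.27 ± 0.05) and the pyruvate dehydrogenase subunits Pdha1 and Pdhb. In the stress and turnover lists, 3 of 24 genes were lower in the first (Hspe1, a mitochondrial chaperonin, Nupr1 and Ddit3) and 3 of 15 in the second (Mff and Dnm1l, which act in fission, and Sqstm1). No gene of either list was higher. Over the 19 alternatives that kept the pairing, Mrps6 and Hspe1 were called in 13, Sqstm1 in 10, Mff in 14, and Idh2 and Nupr1 in 16.

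Exactly 6 genes were called in the same direction in all 20 fits that kept the pairing, which included fits of interior spots alone and of edge spots alone (within 3 steps of the border), each with high and middle classes drawn anew among those spots, fits within strata of depth and without each section, and all 6 were higher in high spots: Mmp14, Nrp1, Malat1, Gm42418, Pabpn1 and Rbms1. The genes Nrp1, Gm42418, Pabpn1 and Rbms1 were singled out after their values were seen. Mmp14 encodes a membrane-bound metalloproteinase that cleaves collagen (GRCm38 chr14:54431612-54445364, plus strand). Its level in high spots was 47.0, 17.0, 80.3 and 29.7 CPM, where middle spots of the same sections held 7.52, 3.53, 16.0 and 4.22 CPM. Every high value was above every middle value of any section. The log2 fold change was 2.49 ± 0.11 (SE, adjusted p = 2.5e-05 in edgeR), higher in 4 of 4 sections and between 1.70 and 3.39 over the 19 alternatives that kept the pairing.

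Mmp14 rose both at the border and inside. Within 3 steps of the border it was 5.76, 5.25, 4.66 and 8.80 times as high in high as in middle spots, and further inside 6.38, 3.28, 5.36 and 5.13 times. Across the 10 bins of the share it increased from 4.42 to 47.0 CPM in CC075F1 replicate 1 and from 6.73 to 80.3 CPM in CC080F1 replicate 1, from the lowest to the highest bin. Nrp1, a co-receptor of semaphorins and VEGF, changed by 2.32 ± 0.22 and Pabpn1, the nuclear poly(A)-binding protein, by 1.60 ± 0.13, with 34.4, 24.4, 35 and 22.0 CPM of Pabpn1 in high spots and 9.54, 10.6, 9.93 and 7.11 CPM in middle spots. The classes did not overlap for Pabpn1. Rbms1, an RNA-binding protein, rose less (0.67 ± 0.06).

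Higher genes included Malat1 and 2 genes at a ribosomal RNA repeat. Malat1, a long non-coding RNA retained in nuclear speckles (GRCm38 chr19:5795690-5802672, minus strand), was at 180, 56.6, 198 and 205 CPM in high spots and at 32.7, 20.2, 38.8 and 36.3 CPM in middle spots. All 4 high values exceeded all 4 middle values (log2 fold change 2.20 ± 0.17 SE, adjusted p = 0.0011 in edgeR), and CC075F1 replicate 2 had the smallest difference. Inside the tissue the ratio was 4.91, 1.45, 4.57 and 6.17, and within 3 steps of the border 5.57, 3.48, 5.28 and 3.55. Gm42418 is a non-coding gene that overlaps a ribosomal RNA repeat on chromosome 17 (GRCm38 chr17:39846958-39848788), and its counts are commonly taken to include ribosomal RNA. It rose from 467, 165, 904 and 498 CPM to 2705, 361, 3064 and 1873 CPM (1.83 ± 0.19, adjusted p = 0.0046 in edgeR). The groups overlapped here, since the high value of CC075F1 replicate 2 was below the middle values of the other sections. The adjacent Gm26917 rose as well (1.25 ± 0.18), and so did Lars2, the mitochondrial leucyl-tRNA synthetase, a nuclear gene (1.17 ± 0.14, from 36.4, 13, 71.0 and 36.0 CPM to 94.2, 18.5, 186 and 88.9 CPM). Both were singled out after their values were seen, and of the fits that kept the pairing they lost the call only without CC075F1 replicate 1 (adjusted p = 0.094 and 0.076 in edgeR). Whether ribosomal RNA also enters the counts of Lars2 was not tested.

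Of 7 genes tested in the list of nuclear-retained RNAs, 4 were higher (Malat1, Meg3, Kcnq1ot1 and Mirg), 1 was lower and 2 were not called. Over all genes tested, 3.30% were higher and 2.85% lower. Kcnq1ot1 was called in 13 of 19 alternatives that kept the pairing, and Mirg in 7 of the 16 in which it was tested. Meg3, an imprinted non-coding RNA, changed by 2.22 ± 0.43 and lost the call without any of 3 sections or in edge spots alone. The lower member was Gas5 (-0.35 ± 0.07), a spliced host gene of small nucleolar RNAs, and Neat1, the RNA of paraspeckles, was at 0.39 ± 0.14 (adjusted p = 0.12 in edgeR). The median of the list was 1.25, but its summed level was 0.88, 0.72, 0.94 and 0.99 times that of middle spots, because Gas5 outweighed the other members at a mean of 2005 CPM in middle spots.

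Oligo(dT) can also capture RNA at internal runs of A, so the longest transcript of each gene (GENCODE vM21) was searched for runs of 12 or more A on the sense strand, leaving out its last 30 bases. Such a run was found in 20.3% of the 454 higher genes, 5.36% of the 392 lower genes and 10.4% of 13766 genes with a transcript. Higher genes also had longer transcripts, at a median of 3498 bases against 3247 over all genes and 2461 in lower genes. Within 4 equal bins of transcript length, from the shortest to the longest, 8.93%, 5.73%, 5.67% and 6.57% of genes with a run were called higher, against 2.97%, 2.71%, 2.82% and 3.30% of those without. Runs therefore were more frequent among higher genes at like length. To show what such a run looks like, the 3 genes of largest increase that held one (called, higher in 4 of 4 sections, mean of 10 CPM or more) are shown with 30 bases each, 5′ to 3′, the run in capitals. In Meg3 it lies in exon 1 of 5 (chr12:109545810-109545839, plus strand), in Malat1 in the sole exon near its 3′ end (chr19:5795979-5796008, minus strand), and in Col1a1 in the 3′ UTR, in exon 51 of 51 (chr11:94951846-94951875, plus strand), all on GRCm38.
Meg3: caagaccAAAAAAAAAAAAAAAAcaaaaac
Malat1: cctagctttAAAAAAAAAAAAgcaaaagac
Col1a1: ccaaaaaagAAAAAAAAAAAAAgaataaat
A run in these transcripts does not show that RNA was captured there. No transcript of a tested gene matched any of the 37 mitochondrial transcripts (blastn at an E-value limit of 1e-10, in which all 37 matched themselves).

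**Figure D4:**
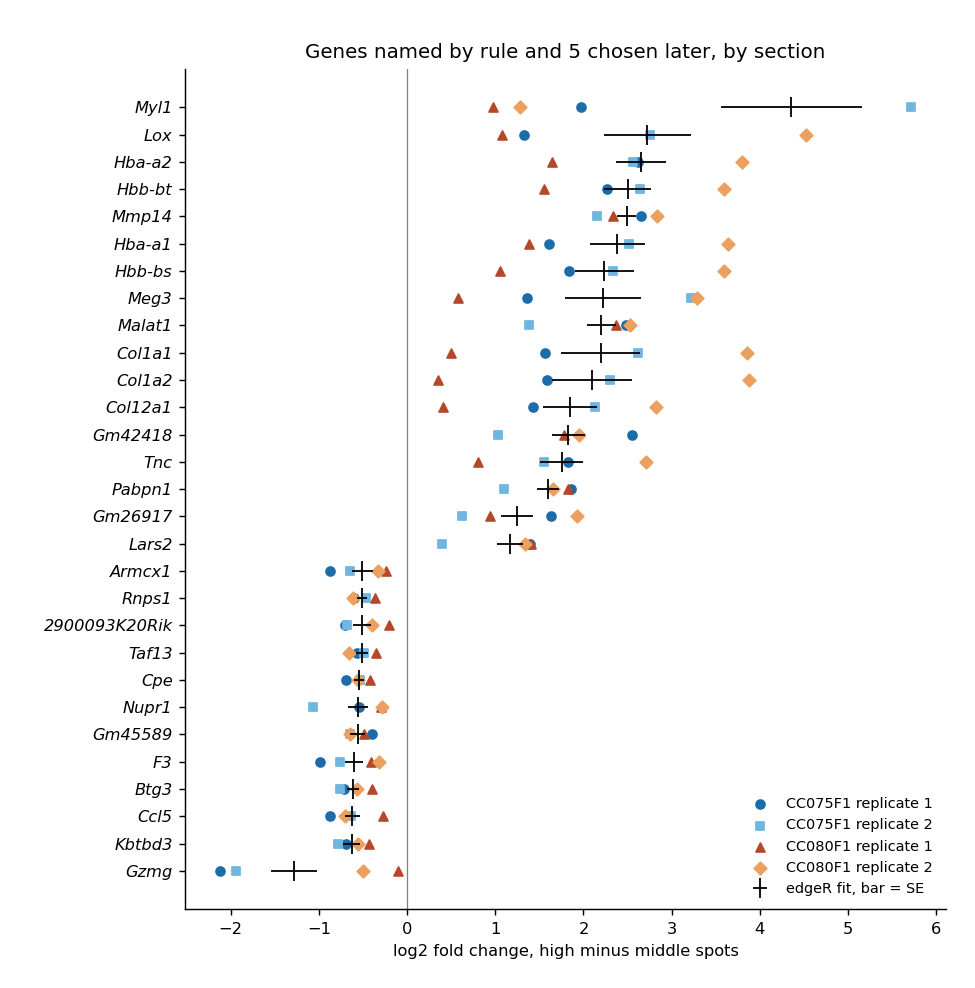
The log2 fold change (high minus middle spots) of the 24 genes named by rule and of Gm42418, Tnc, Pabpn1, Gm26917 and Lars2, with 1 symbol per section and the edgeR estimate with its SE in black. Mmp14 and Pabpn1 have narrow spreads and Malat1 has 1 section (CC075F1 replicate 2, 1.38) below the others, whereas Myl1, Lox and the collagens range widely between sections, with CC080F1 replicate 1 lowest for most of them.

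Some genes of the extracellular matrix were higher. Among 10 fibroblast markers, 3 were higher (Col1a1, Col1a2 and Bgn) and none lower, with a list median of 1.22. Of all genes tested, 3.30% were higher and 2.85% lower. Col1a1, the main chain of type I collagen, was at 99.2, 394, 82.7 and 775 CPM in high spots and at 34.0, 60.0, 59.4 and 54.8 CPM in middle spots. All high values exceeded all middle values, by a small margin in CC080F1 replicate 1 and 14-fold in CC080F1 replicate 2 (log2 fold changes 0.50 and 3.86, overall 2.20 ± 0.45 SE, adjusted p = 0.029 in edgeR). Lox, which cross-links collagen, changed by 2.72 ± 0.49, Col12a1 by 1.85 ± 0.30, and Tnc, an adhesion-modulating matrix protein, by 1.76 ± 0.24. Col1a1 also differed with position, and in middle spots it was at 118, 296, 78.1 and 162 CPM within 3 steps of it and at 24.3, 41.9, 52.0 and 41.9 CPM further inside. The difference between classes was present inside as well, with ratios of 2.84, 3.0, 1.35 and 15.7, and in a fit of interior spots alone it was 1.78 (adjusted p = 0.00043 in edgeR). In edge spots alone it was 0.77 and did not pass (adjusted p = 0.096). The call for Col1a1 was also lost without CC075F1 replicate 1 (adjusted p = 0.11 in edgeR) or without CC075F1 replicate 2 (adjusted p = 0.10). Lox and Col12a1 lost their calls without either of the same sections (adjusted p from 0.082 to 0.095 in edgeR), and Tnc without CC075F1 replicate 1 (adjusted p = 0.090). These were not the only losses. Over the 19 alternatives that kept the pairing, Col1a1 and Col12a1 were called in 15, Lox in 16 and Tnc in 17. The lowest log2 fold change of Tnc among them was 0.03. Abundant markers of the fibroblast list did not pass, with 0.17 ± 0.17 for Col3a1 and -0.03 ± 0.09 for Dcn, and the summed level of the list was 0.90, 2.31, 0.98 and 1.89 times that of middle spots.

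All 5 markers of erythrocytes were higher in high spots (list median 2.50), where 3.30% of all genes tested were higher. Hbb-bs, a beta chain of adult hemoglobin, was at 34.7, 809, 148 and 273 CPM in high spots and at 9.84, 149, 72.6 and 23.1 CPM in middle spots. High exceeded middle within each section, while high and middle values overlapped between sections (2.24 ± 0.33 SE, adjusted p = 0.014 in edgeR). Hba-a2 changed by 2.65 ± 0.28 and Hbb-bt by 2.50 ± 0.27; the hemoglobin genes come in near-identical pairs (Hba-a1 with Hba-a2, Hbb-bs with Hbb-bt), so their separate values are uncertain. Within 3 steps of the border, Hbb-bs was 5.66, 1.25, 2.08 and 3.34 times and Hba-a1 5.73, 1.39, 2.54 and 3.51 times as high in high as in middle spots of the section-wide classes. With classes drawn anew among edge spots alone, their log2 fold changes were -0.25 and -0.17 and not called, so the direction at the border depended on how the classes were drawn. In interior spots alone they were 2.22 and 2.50 and called. The call for Hbb-bs was lost without CC075F1 replicate 1 (adjusted p = 0.090 in edgeR) or CC075F1 replicate 2 (adjusted p = 0.0503), with fold changes of 2.33 and 2.19. Whether red blood cells add to the mitochondrial share was not tested.

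**Figure D5:**
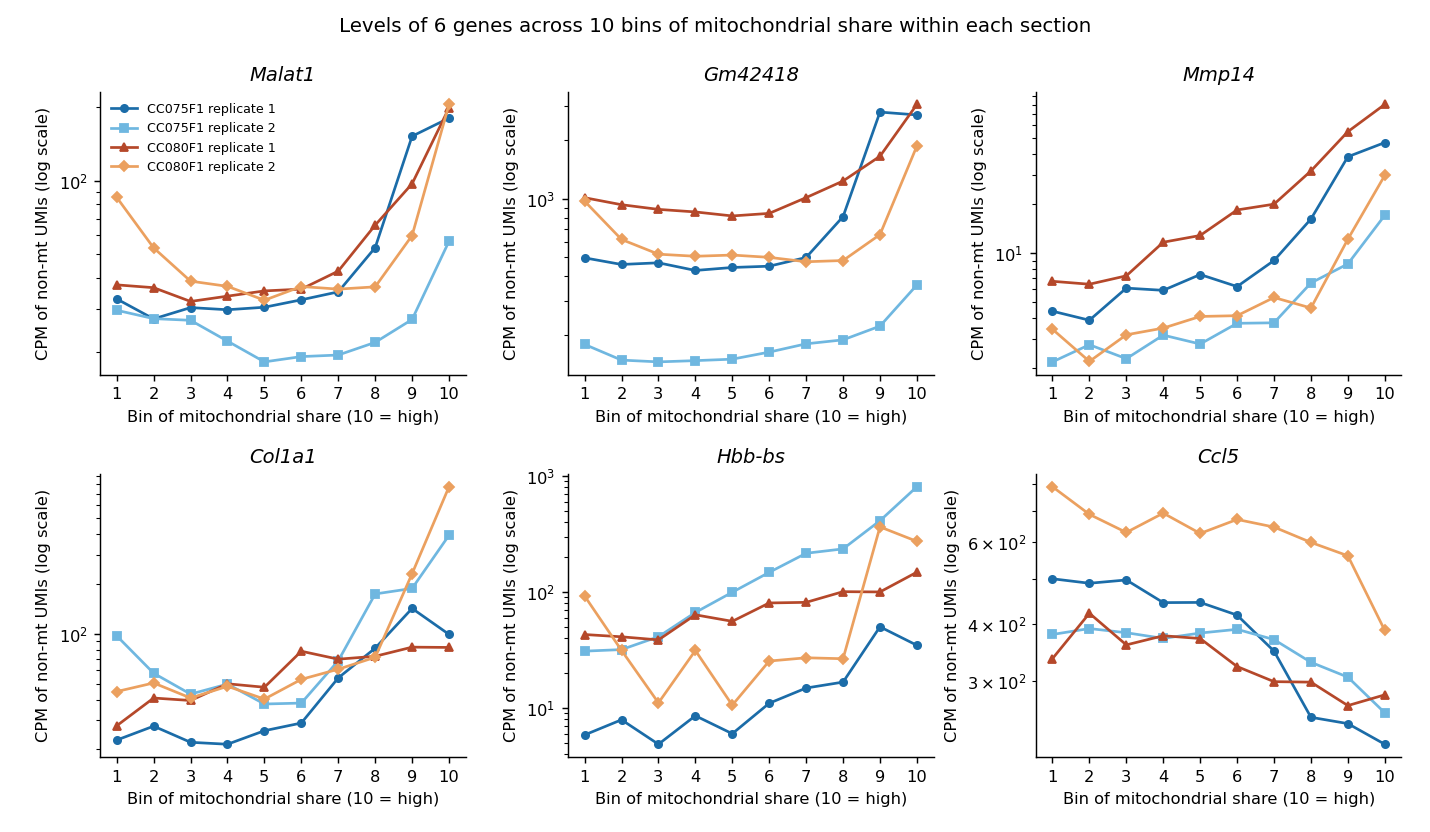
Level of 6 genes (CPM of non-mitochondrial UMIs, log axis) in spots sorted into 10 bins of mitochondrial share within each section (x axis), 1 line per section. Mmp14 and Hbb-bs increase over most bins in most sections, Malat1 and Gm42418 are nearly flat or fall up to bin 7 and rise after it, Col1a1 rises late, and Ccl5 falls.

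Skeletal muscle and fat were present in part of the high spots. In CC075F1 replicate 2, 34 of 328 high spots held 1% or more of their UMIs from muscle, fat or keratinocyte markers, out of 42 such spots in that section, and no spot of the other sections did. Muscle markers summed to 1427 CPM in the high spots of that section and 22.5 CPM in its middle spots, a ratio of 63.5, and the ratio was 1.11, 1.40 and 0.99 in the other sections. Of 9 muscle genes, 5 were called higher (Myl1, Myh1, Tnnc2, Atp2a1 and Acta1) on the strength of this section, against 3.30% of all genes tested. Myl1, a myosin light chain, was at 77.1 CPM there and at 0.192, 2.16 and 0.171 CPM in the other high classes. Markers of adipocytes summed to 41.0 CPM against 0.927 CPM in CC075F1 replicate 2 and to 109 CPM against 1.82 CPM in CC080F1 replicate 2, where most high spots lay at the border, but to 5.04 CPM against 7.88 CPM in CC080F1 replicate 1. Without the spots holding such tissue, 876 genes were called, 801 of them among the 846.

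Genes lower in high spots changed by small amounts. The 12 named by rule included Ccl5, a T-cell attracting chemokine, which was at 219, 257, 281 and 387 CPM in high spots and at 408, 372, 344 and 645 CPM in middle spots. It was lower in 4 of 4 sections (-0.62 ± 0.09 SE, adjusted p = 0.010 in edgeR), least in CC080F1 replicate 1, and it was not called in edge spots alone (-0.18) or without CC075F1 replicate 1 (-0.54, adjusted p = 0.083 in edgeR). Btg3, an antiproliferative gene, fell by 0.61, Nupr1, a stress-induced gene, by 0.56, Cpe, carboxypeptidase E, by 0.55, F3, tissue factor, by 0.60, and the splicing factor Rnps1 by 0.51 on the log2 scale. Gzmg, a granzyme, had the largest decrease (-1.28 ± 0.26) but was below 1 CPM in both classes of CC080F1 replicate 1 and lost its call under 9 of the 19 alternatives that kept the pairing. Kbtbd3, Gm45589, Taf13, 2900093K20Rik and Armcx1 fell by 0.51 to 0.63.

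Immune genes were read against 3.30% of all genes higher and 2.85% lower. The pan-leukocyte gene Ptprc was at 0.26 ± 0.07 (adjusted p = 0.069 in edgeR), Cd8a at 0.24 ± 0.19, the macrophage genes Adgre1, Itgam and Cd68 at -0.01, 0.11 and -0.02, Spp1 at -0.09 ± 0.12 and Cxcl9 at 0.15 ± 0.15, none of them called. Among the dendritic cell genes of the study, Batf3 was at 0.08 and Zbtb46 at -0.17, without a call. Thy1, a T-cell gene also expressed by fibroblasts, was higher (1.00 ± 0.21, adjusted p = 0.034) and was the sole gene called of 14 T and NK cell markers. Among 12 monocyte and macrophage markers Cd14 was higher (0.46 ± 0.10), among 7 Spp1-type macrophage markers Arg1 (0.94 ± 0.23), among 6 neutrophil markers S100a8 and S100a9 (1.20 and 1.47, at mean levels under 3 CPM, while the summed level of the list was 0.88, 0.90, 0.93 and 0.92 times that of middle spots), and among 8 dendritic cell markers Cd209a and Flt3, both near or under 1 CPM. Cd14, Arg1, Cd209a, Flt3, Thy1, H2-T23 and Cd276 are given because they were called, and Arg1 and S100a8 were not called in edge spots alone, where they were at -0.27 and -0.81. S100a8 was called in 8 of the 19 alternatives that kept the pairing, Arg1, Cd14 and Thy1 in 13 each, and H2-T23 in 15. Of 17 genes of an IFN-γ signature 2 were higher (H2-T23, an MHC class Ib gene, at 0.67 and Cd276 at 0.72) and Ccl5 was lower. None of 10 MHC class II genes, 10 endothelial, 4 B cell, 3 epithelial or 3 keratinocyte markers was called; the list medians were 0.25, 0.47, -0.05, -0.22 and -0.16.

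Lists of growth and stress followed, with the same background of 3.30% higher and 2.85% lower. None of 17 hypoxia genes was called, and their summed level differed in direction, at 0.77, 0.86 and 0.96 times that of middle spots in 3 sections and 1.71 times in CC080F1 replicate 2. None of 19 glycolysis genes passed (median 0.05). Of 23 cell cycle genes 1 was lower (Mcm4, -0.23), and of 21 cell death genes 1 was lower, the pro-apoptotic Bax (-0.30 ± 0.05). Bax was called in 12 of the 19 alternatives that kept the pairing. Among 78 cytosolic ribosomal proteins 7 were higher, with Rpl27 at 0.35, and Rpl21 was lower. Of 18 immediate early and heat shock genes 2 were higher, Junb (0.40) and Egr1 (0.70), both fast-induced transcription factors.

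The contrast of high against middle spots was then compared between strains. In edgeR 4 genes (0.0290%) had a class by strain difference past the threshold, and 353 had an unadjusted p under 0.05. All 4 were muscle genes with the larger increase in CC075F1: Myl1, Myh1, Acta1 and Csrp3. They rest on 1 section of the strain: Acta1 was at 540 CPM in the high spots of CC075F1 replicate 2 and at 0 CPM in those of CC075F1 replicate 1, and 0 genes were called without the spots holding muscle, skin or fat (367 with an unadjusted p under 0.05) or without CC075F1 replicate 2 (276). With 2 sections per strain, differences between strains in the remaining genes were not detectable with this design.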

How the data were processed

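Per the labels, the authors sequenced fresh frozen Visium sections and processed them with Space Ranger on GRCm38 (mm10). The deposited matrices hold raw UMI counts of 32285 genes per spot under tissue, without normalization. Here, mitochondrial genes were left out of library sizes and tests, and CPM are UMIs per 1000000 non-mitochondrial UMIs. Summed counts of high and middle spots (8 sums) were fitted in edgeR 4.0.16 (R 4.3.3; limma 3.58.1, DESeq2 1.42.0 as alternatives) with TMM factors, filterByExpr and section and class as terms. Section was the block because both classes come from the same tumor. Tests ran on 5210976 to 77640623 UMIs per sum. The edgeR step was tested on simulated data with known changes.

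Members, gene lists and tests were chosen with earlier results of these data known. Named by rule were the up to 12 largest increases and decreases among called genes of one sign in 4 of 4 sections with a mean of 10 CPM or more, up to 4 most abundant members per list, the mitochondrial genes, 10 genes of the study, and up to 5 genes per direction for the strain term. Of 632 list symbols 630 matched. Alternatives varied class limits, depth, position, scaling, filter, test and sections. P-values of paired comparisons measure how the difference between the classes varied over 4 tumors. The p-value of the share by strain compares unpaired section medians. Results for 1 withheld gene are not reported here.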

Additional observations from a re-analysis of the deposited data

Results flagged for a closer look

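Of 63 sets of 4 section values examined, 5 had 1 section far from the other three by Dixon's test, where chance flags about 1 in 20. In CC075F1 replicate 2 the difference in genes seen at equal depth was 91.1, the ratio of summed B cell markers 2.62 (list of 4 tested genes, none called), the ratio of summed skeletal muscle markers 63.5, and the log2 fold change of Malat1 1.38, where the other sections lay between 2.37 and 2.53. In CC080F1 replicate 2 the ratio of summed mitochondrial ribosomal proteins was 0.88, against 0.96 to 0.97 elsewhere. The section CC075F1 replicate 2 was also the deepest, and it alone held spots past the limit for muscle, skin or fat; the part of either in these values was not tested.

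The 4 genes whose contrast differed between the strains in edgeR's class by strain term had log2 differences (CC075F1 minus CC080F1) of 4.66 for Myl1, 6.25 for Myh1, 5.54 for Acta1 and 6.04 for Csrp3, with muscle present in 1 CC075F1 section.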

How the results depend on the processing

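Against 846 genes called, counts were 254 with the top 5% as high, 1682 against the bottom 25%, 293 within depth strata, 580 with library size alone and 1804 without a filter on low counts. Of alternatives added after the data were seen, interior spots within depth strata gave 472 and edge spots alone 41. Without the pairing by section (no replicate block) 0 genes were called and 3 with a strain term in place of the section. Leaving out 1 section gave 24 to 859. All 846 kept their sign in every alternative in which they were tested, except 3 of 820 in the interior within strata and 25 of 797 at the edge. The 4 strain term calls became 10 with the top 20%, 6 with 5000 or more UMIs or with DESeq2, 9 within depth strata or in interior spots, 0 without muscle, skin or fat, at the edge alone or in limma-voom (395 with an unadjusted p under 0.05), 1 when classes and counts came from separate UMIs, 2 with library size alone and 123 without a filter. Leaving out 1 section gave 0 to 86.

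Directions turned for Apoe (-0.24) and Vegfa (-0.21) in interior spots, where both were called lower, for Gzmg (0.092) in the interior within strata, for Arg1 (-0.27), Hba-a1 (-0.17), Hbb-bs (-0.25) and S100a8 (-0.81) with classes drawn anew among edge spots (with section-wide classes both hemoglobin genes were higher at the edge in 4 of 4 sections), and for the strain term of Acta1 without CC075F1 replicate 2 (-5.46, range -5.46 to 5.62 over sections left out). Depth, edge distance, genes at equal depth and share by strain moved by less than 1 SD in all alternatives. Relative to their size they moved more: depth was -0.49 without CC080F1 replicate 2 and -0.43 with the top 20%, edge distance -2.16 within depth strata, the strain difference in share -0.56 without CC075F1 replicate 1, -0.07 without CC075F1 replicate 2 and -0.19 without CC080F1 replicate 1. Genes at equal depth (6.18) became -17.2 within depth strata, -1.94 with the top 20% and -22.1 without CC075F1 replicate 2. Exact tests of these values cannot pass 0.05 with 4 sections. The cause of these changes was not tested.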
